A study of Homo sapiens with 24 samples.

Results

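The transcripts examined here encode growth factors of the PDGF, FGF and VEGF families and the FGF receptors, a set of 10 genes: the ligands PDGFA, PDGFB, PDGFC, FGF2, VEGFA and VEGFC and the receptors FGFR1, FGFR2, FGFR3 and FGFR4. Every probe that the array files assign to one of these gene names was taken, which gave 18 probes out of 34127, and 10 of 24655 gene names on the array. A total of 15 of the 18 probes, covering all 10 genes, entered the tests, beside 23827 probes in all, since some group had its 3 arrays all well above background for them. RNA was taken from A549 and H1975 cells, 2 established human lines of lung adenocarcinoma. Each line received either Pirfenidone at 0.75 mg/ml or as much PBS, the solvent, and was harvested after 6 h or 24 h. Each of the 8 groups of line, treatment and time held 3 samples, and each of the 24 samples had its own single-color Agilent array. The labels do not say whether the 3 samples of a group were separate cultures, so p-values measure the spread between these samples, which may be technical.

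PDGF, FGF and VEGF ligands are secreted proteins that bind receptor tyrosine kinases, which then signal through the RAS-ERK and PI3K-AKT cascades. PDGF ligands drive growth and matrix production in fibroblasts, FGF ligands act on epithelial and mesenchymal cells through the FGF receptors, and VEGF ligands act on blood and lymph vessels. Pirfenidone is an antifibrotic drug, and these factors are counted among the fibrogenic growth factors of the lung.

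Values are given as the normalized log2 signal, the log2 of the background-corrected brightness of a probe minus that of the 75th percentile of its array, so that 0 is the brightness of that percentile. Probes differ in how they bind, and the level of a probe was compared only with the same probe on other arrays. A difference was called at a limma Benjamini-Hochberg adjusted p of 0.05 or less over all 23827 probes and a fold of at least 2. On each array 62.7% to 69.5% of probes passed the scanner software's background test, none was saturated, and arrays of a group correlated with a Pearson r of 0.9841 to 0.9979 across probes. All 6 epithelial markers (EPCAM, CDH1 and keratins) passed it on the 12 arrays of either line. Of the 5 lung lineage markers, SFTPC and NAPSA passed it on all 12 arrays of either line, NKX2-1 on 12 H1975 and 0 A549 arrays, SFTPB on 9 H1975 and 1 A549 array, and SFTPA1 on none. The deposited files carry 4 dates, and every A549 and H1975 group held 1 array of the date numbered 1 here. Each of the 7 slides held arrays of 1 line only. The place on the slide was fixed in both lines: 1 for Pirfenidone at 6 h, 2 for PBS at 6 h, 3 for Pirfenidone at 24 h and 4 for PBS at 24 h. Line thus cannot be told apart from slide, nor treatment and time from place.

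The larger differences in this gene set lay between the lines. With PBS, 11 of the 15 tested probes were called between H1975 and A549 at 6 h, beside 32.4% of all probes tested, and 11 at 24 h, beside 32.9%. At both times they were probes of 7 genes: PDGFC and VEGFA were higher in H1975, and FGF2, VEGFC, FGFR1, FGFR3 and FGFR4 were higher in A549. Over the 15 probes the median log2 difference, H1975 minus A549, was -1.86 at 6 h and -2.18 at 24 h, against 0.06 and 0.08 over all probes tested. The lines did not overlap for 12 of the 15 probes at 6 h and 11 at 24 h, beside 66.3% and 63.7% of all probes. A probe that entered the test through 1 line alone had to differ between the lines, which applies to FGF2 and VEGFC, so the counts and medians describe the set and support nothing further.

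**Figure D1:**
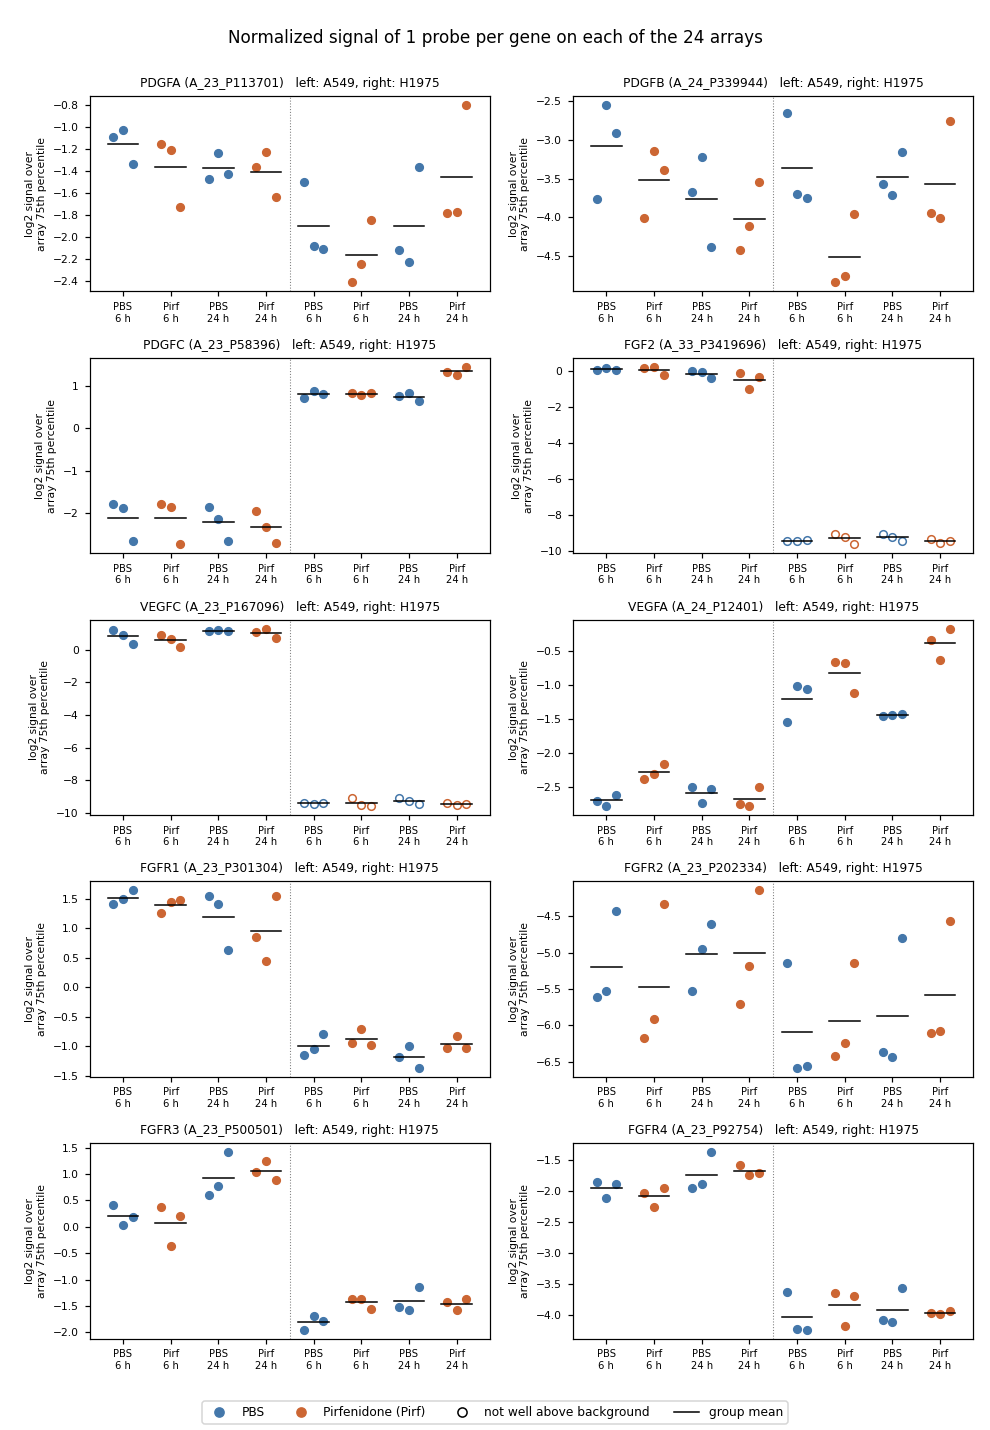
Normalized log2 signal (log2 of the signal over the 75th percentile of its array) on each of the 24 arrays for 1 probe of each gene, with A549 left and H1975 right of the dotted line. Points are arrays, open points were not well above background, and bars are means of 3 arrays. FGF2 and VEGFC were well above background on the 12 A549 arrays and on 0 H1975 arrays, and each panel has its own vertical axis.

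FGF2, a heparin-binding mitogen also called basic FGF, was detected in A549 cells and in no H1975 array. Its brighter probe (A_33_P3419696, hg19 chr4:123819331-123819390) read 0.08, 0.14 and 0.05 in A549 with PBS at 6 h. In H1975 with PBS at 6 h it read -9.44, -9.47 and -9.40. The A549 arrays were thus all high and the H1975 arrays all at background, with no overlap. A group that is not well above background has only an upper limit: here the mean of its arrays was replaced by the higher of its own signal and the lowest signal among probes well above background on that array. FGF2 was at least 181-fold higher in A549 at 6 h and at least 138-fold higher at 24 h. It entered the tests only through A549 and had to differ, so its calls (limma adjusted p = 1.12e-18 and 2.34e-18) are a description. The dimmer FGF2 probe (A_33_P3379886) shares 46 of its bases with the first and gave at least 23.1-fold and at least 17.7-fold. It is no independent measurement, because the 2 probes overlap.

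VEGFC, the ligand of the lymphatic receptor VEGFR-3, had the same pattern. Its probe (A_23_P167096) read 1.21, 0.88 and 0.37 in A549 with PBS at 6 h and 1.14, 1.18 and 1.12 at 24 h. In H1975 it read -9.40, -9.47 and -9.38 at 6 h and -9.07, -9.24 and -9.46 at 24 h, well above background on none of the 12 arrays. VEGFC was therefore at least 299-fold higher in A549 at 6 h and at least 343-fold higher at 24 h. It too entered the tests only through A549, so its calls (limma adjusted p = 1.95e-18 and 1.6e-18) are a description. With normexp, another background correction that adds a constant to every signal, the log2 differences shrank to -6.51 and -6.79 for VEGFC and to -6.11 and -5.56 for the brighter FGF2 probe. All stayed called, which is again a description, since both genes still entered through A549 alone.

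FGF2 and VEGFC were the 2 members not detected in 1 of the lines, so the stretches just before their transcription start are shown, from RefSeq on GRCh38.p14, 250 bases each, written in the direction of the gene. The promoter table listed windows for 6 of the 10 genes, 14 windows in all, namely PDGFA, FGF2, FGFR2, FGFR3, FGFR4 and VEGFC. Capitals mark the hypoxia response core, ACGTG or GCGTG on either strand, which was held by 10 of the 14 windows of 300 bases and by 48.4% of all 35116 promoter windows.
FGF2, chr4:122826581-122826830, plus strand: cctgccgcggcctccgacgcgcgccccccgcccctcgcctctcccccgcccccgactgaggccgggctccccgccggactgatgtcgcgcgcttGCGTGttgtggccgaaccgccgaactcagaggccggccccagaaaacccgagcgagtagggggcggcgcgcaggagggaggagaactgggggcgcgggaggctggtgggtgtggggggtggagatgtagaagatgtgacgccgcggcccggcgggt
VEGFC, chr4:176792923-176793172, minus strand: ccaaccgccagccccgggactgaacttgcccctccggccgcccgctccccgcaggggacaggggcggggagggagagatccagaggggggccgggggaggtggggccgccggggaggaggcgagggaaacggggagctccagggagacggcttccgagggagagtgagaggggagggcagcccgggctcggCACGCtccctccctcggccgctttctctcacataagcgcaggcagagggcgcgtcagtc
Each of these windows held 1 match to that core. The GC box GGGCGG (either strand) was found 3 times in the FGF2 window and 2 times in the VEGFC window, and 45% of all windows hold it. The AP-1 element TGANTCA was in 0 of the 14 windows, against 7.71% of all, and the ATF4/CHOP element TGATGNAA in 1, an FGFR2 window, against 3.62%. A match describes the letters of the window and is not a measured binding site.

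PDGFC, a PDGF ligand that is activated by proteolysis, ran the other way. Its probe (A_23_P58396) read -1.78, -1.88 and -2.66 in A549 and 0.70, 0.87 and 0.82 in H1975 with PBS at 6 h. Every H1975 array was above every A549 array, and the same held at 24 h. The log2 difference was 2.90 at 6 h (standard error 0.26, limma adjusted p = 1.05e-08), a 7.46-fold difference, and 2.95 at 24 h (limma adjusted p = 8.06e-09).

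VEGFA, the main angiogenic ligand, was also higher in H1975. The probe A_24_P12401 (hg19 chr6:43753511-43753570) read -2.70, -2.77 and -2.62 in A549 and -1.54, -1.02 and -1.07 in H1975 with PBS at 6 h. Its line difference was 1.49 at 6 h and 1.14 at 24 h on the log2 scale (limma adjusted p = 7.92e-08 and 2.55e-06). The probe A_23_P70398 gave 1.41 and 1.34 (limma adjusted p = 6.49e-05 and 0.000116), which is 2.67-fold and 2.53-fold. This second probe is assigned to a span of 412 bases for its 60 letters (hg19 chr6:43746223-43746634, plus strand), so it bridges an intron, whereas the first lies in 1 block of the genome further downstream. Its sequence is shown because the response to Pirfenidone rests on these probes, in lower case throughout as the whole oligonucleotide is the probe.
VEGFA A_23_P70398: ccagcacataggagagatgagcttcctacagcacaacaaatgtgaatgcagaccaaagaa

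Of the FGF receptors, FGFR1, FGFR3 and FGFR4 were higher in A549. FGFR1 (A_23_P301304) read 1.41, 1.49 and 1.64 in A549 and -1.15, -1.05 and -0.79 in H1975 with PBS at 6 h. FGFR3 (A_23_P500501) read 0.42, 0.04 and 0.19 against -1.95, -1.69 and -1.78. FGFR4 (A_23_P92754), which binds FGF19 together with the co-receptor KLB, read -1.85, -2.11 and -1.88 against -3.64, -4.23 and -4.25. None of these receptors had overlapping lines. The log2 differences, H1975 minus A549, at 6 h and 24 h were -2.51 and -2.37 for FGFR1 (5.70-fold and 5.17-fold lower in H1975). For FGFR3 they were -2.02 and -2.35, and for FGFR4 -2.09 and -2.20, and all had a limma adjusted p of at most 5.3e-08. The second tested probes of FGFR1 (A_23_P372923) and FGFR3 (A_23_P212830) had the same direction, at -2.30 and -2.20 for FGFR1 and -1.86 and -2.18 for FGFR3. The dim FGFR3 probe was well above background on 8 of 12 H1975 arrays, and with normexp its difference fell short of the call at -1.03 and -1.20 (limma adjusted p = 0.126 and 0.0719). The FGFR4 probe lies at hg19 chr5:176523121-176523180 on the plus strand, and its sequence is given as that of the only probe for the gene.
FGFR4 A_23_P92754: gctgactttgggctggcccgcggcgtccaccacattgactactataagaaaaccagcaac

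**Figure D2:**
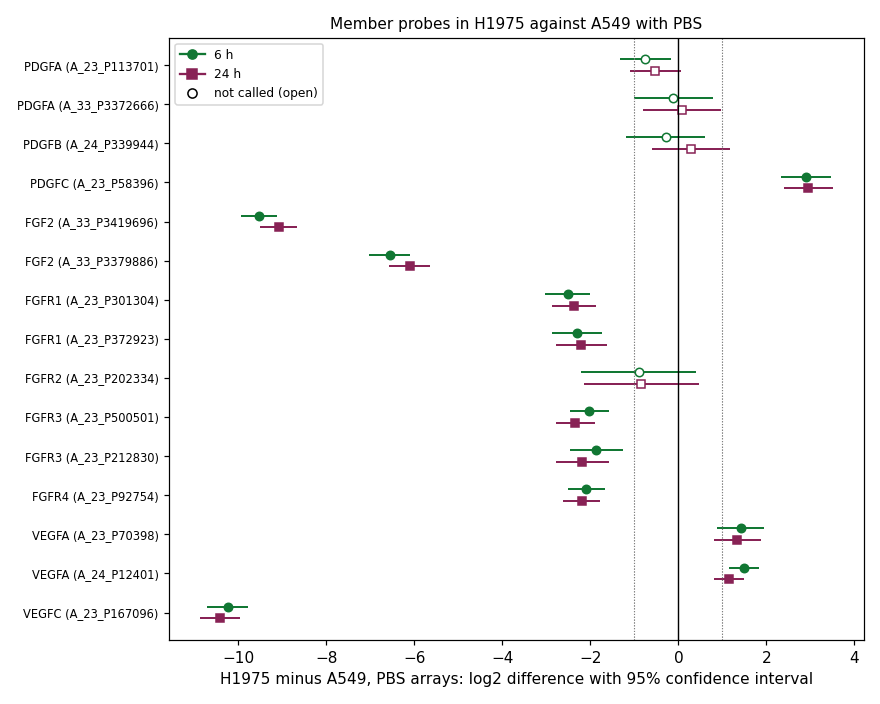
Log2 difference between H1975 and A549 with PBS for the 15 tested probes, circles at 6 h and squares at 24 h, with 95% confidence intervals. Filled symbols were called and dotted lines mark a 2-fold difference. The 11 called probes are the same at both times, with PDGFC and VEGFA to the right and FGF2, VEGFC, FGFR1, FGFR3 and FGFR4 to the left; for FGF2 and VEGFC the values set H1975 at its background signal and are not bounds.

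PDGFA, PDGFB and FGFR2 were not called between the lines. PDGFA, an A-chain PDGF ligand, has 2 probes that differed from each other: A_23_P113701 gave -0.75 at 6 h (95% interval -1.31 to -0.19, limma adjusted p = 0.022), under the 2-fold limit, and -0.53 at 24 h (-1.09 to 0.03), whereas A_33_P3372666 gave -0.11 (-0.98 to 0.76) and 0.08 (-0.79 to 0.95). PDGFB (A_24_P339944), the B-chain ligand, gave -0.29 at 6 h (-1.16 to 0.58) and 0.29 at 24 h (-0.59 to 1.16). FGFR2 (A_23_P202334), the receptor of FGF7 and FGF10 in epithelium, gave -0.91 (-2.19 to 0.37) and -0.84 (-2.12 to 0.44). These wide intervals do not show equal levels. The hg19 position given for A_23_P202334 spans 14 of its 60 bases. The other FGFR2 probes were dim: A_24_P206624 was well above background on 1 A549 and 5 H1975 arrays and A_23_P303145 on none, and so was the FGFR1 probe A_23_P316447, on none of 24. With PBS the mean of A_24_P206624 was higher in H1975, at -7.52 against -8.15 at 6 h and -7.70 against -7.75 at 24 h. Only 1 array of each of these H1975 groups and 0 of the A549 groups were well above background. The probe A_33_P3372666 of PDGFA (hg19 chr7:557032-557091, minus strand) is shown because its levels below stand apart by date.
PDGFA A_33_P3372666: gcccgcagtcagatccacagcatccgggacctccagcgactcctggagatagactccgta

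The spread of FGFR2 followed the file date. In H1975 the 4 arrays of date 1 read -5.14 to -4.56 and the 8 arrays of the other dates -6.58 to -6.07. In A549 the 4 arrays of date 1 read -4.60 to -4.14 and the others -6.17 to -4.94. The arrays of date 1 were thus the highest in both lines, whatever the treatment and time, by 1.44 on average in H1975 and 1.20 in A549 on the log2 scale. PDGFA (A_33_P3372666) was likewise higher on date 1 in H1975, at -1.15 to -0.06 against -2.26 to -1.56, but not in A549, where the dates overlapped. PDGFC was lower on date 1 in A549, at -2.74 to -2.66 against -2.33 to -1.78. Of the 15 tested probes, 1 was higher and 1 lower on date 1 without overlap in A549, and 2 were higher and 0 lower in H1975, beside 3.21% and 2.48% of all probes in A549 and 8.41% and 7.97% in H1975. With date as a block in the fit the line difference of FGFR2 was -0.97 at 6 h and -0.91 at 24 h, with limma adjusted p-values of 0.000557 and 0.000953, still under the 2-fold limit. Within date 1 the line difference of FGFR2 was -0.72 at 6 h and -0.19 at 24 h, and within date 3 it was -1.06 and -1.43. What the dates stand for is not stated.

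**Figure D3:**
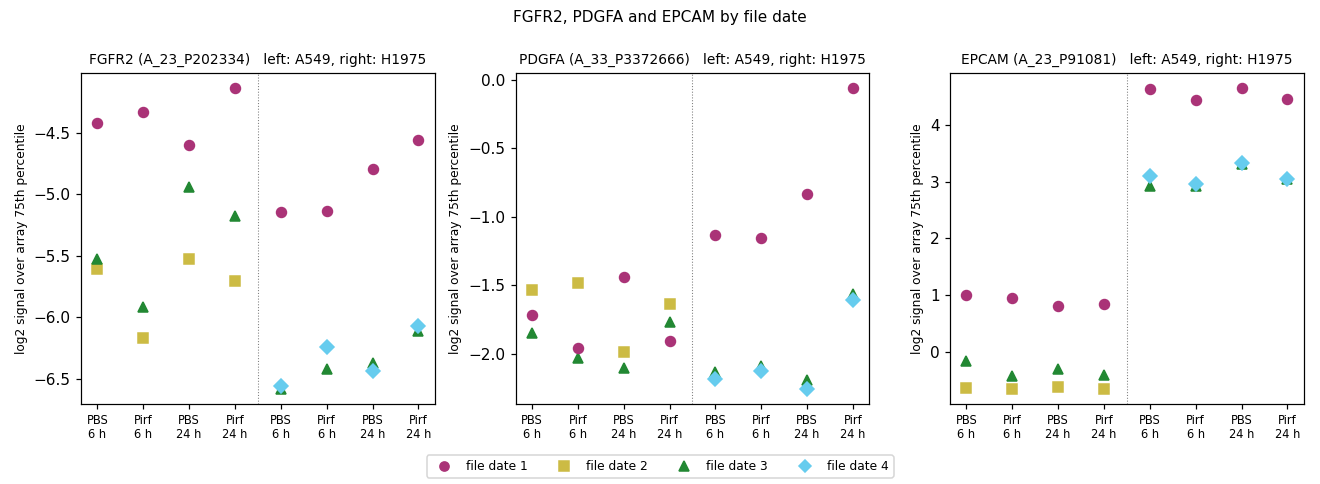
Normalized log2 signal of FGFR2, PDGFA and the epithelial marker EPCAM on each array, by group, with the 4 file dates as symbols and A549 left of the dotted line. Circles are date 1, which lay above the other dates for FGFR2 and EPCAM in both lines and for PDGFA in H1975.

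Pirfenidone changed few of these transcripts. In A549, 0 of the 15 probes were called at 6 h, beside 0.176% of all probes tested, and 0 at 24 h, beside 0.0126%. In limma without adjustment, 1 probe had p under 0.05 at 6 h and 0 at 24 h, against 6.01% and 0.953% of all probes. In H1975, 0 were called at 6 h, beside 0.491%, where 2 probes had an unadjusted limma p under 0.05 against 11% of all probes. At 24 h, 1 was called, the VEGFA probe A_24_P12401, which was higher, beside 1.89% of all probes in either direction and 0.89% that were higher. There 3 probes had an unadjusted limma p under 0.05, against 22% of all probes. The median change over the 15 probes was -0.12 and -0.11 in A549 at 6 h and 24 h, and 0.13 and 0.22 in H1975, against -0.01, -0.02, 0.05 and 0.02 over all probes.

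VEGFA rose in H1975 after 24 h with Pirfenidone. The probe A_24_P12401 read -1.47, -1.44 and -1.43 with PBS and -0.35, -0.63 and -0.18 with Pirfenidone. The 3 PBS arrays were close to each other, and all 3 Pirfenidone arrays were above them. On the log2 scale it rose by 1.06 with a standard error of 0.15 (95% interval 0.74 to 1.38), or 2.08-fold, at a limma adjusted p of 0.000858. This value sits close to the 2-fold limit, and it fell just under it with normexp, at 0.95 (limma adjusted p = 0.0173), and without the Pirfenidone array of replicate 3, at 0.95 (limma adjusted p = 0.00869). The intron-spanning probe A_23_P70398 read -0.24, -0.45 and 0.66 with PBS and 0.68, 0.48 and 1.27 with Pirfenidone. Its groups overlapped through the PBS array of date 1, which was far above the other PBS arrays. Its change was 0.82 with a 95% interval of 0.30 to 1.34, and it was not called (limma adjusted p = 0.0543). It was called without the PBS array of replicate 3, at 1.15 (limma adjusted p = 0.0145). Compared within a date, Pirfenidone minus PBS was 1.25, 1.12 and 0.81 for A_24_P12401 and 0.62, 0.92 and 0.92 for A_23_P70398 on dates 1, 3 and 4, higher in all 3 pairs for both probes.

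At 6 h the differences of VEGFA were smaller. In H1975 the probe A_24_P12401 read -1.54, -1.02 and -1.07 with PBS and -0.66, -0.69 and -1.12 with Pirfenidone, a change of 0.39 (interval 0.07 to 0.70, limma adjusted p = 0.304). The groups overlapped, but within a date the change was 0.42, 0.36 and 0.38 on dates 1, 3 and 4. The probe A_23_P70398 read -0.29, -0.27 and -0.10 with PBS and 0.44, 0.29 and 0.03 with Pirfenidone, without overlap, a change of 0.47 (interval -0.05 to 0.99, limma adjusted p = 0.519). In A549 the probe A_24_P12401 read -2.70, -2.77 and -2.62 with PBS and -2.38, -2.30 and -2.17 with Pirfenidone, a change of 0.41 (interval 0.10 to 0.73, limma adjusted p = 0.521). Here the groups did not overlap, as for 15.3% of all probes in that comparison. The probe A_23_P70398 overlapped there, with a change of 0.33 (-0.19 to 0.84). None of these changes was called. In A549 at 24 h the changes were -0.09 (-0.41 to 0.23) and -0.31 (-0.83 to 0.20) for the 2 probes, and the groups overlapped.

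The change of VEGFA at 24 h differed between the lines for 1 of its probes. For A_24_P12401 the change in H1975 exceeded that in A549 by 1.15 on the log2 scale (standard error 0.21, 95% interval 0.70 to 1.60, limma adjusted p = 0.0281), the only call among the 15 probes, beside 0.193% of all probes. For A_23_P70398 the difference was 1.13 (interval 0.40 to 1.86, limma adjusted p = 0.18), not called. The call for A_24_P12401 was lost in 12 of 24 alternatives. These were normexp (limma adjusted p = 0.274), Holm adjustment (0.907), 8 of the 12 fits that left out 1 array, a fit of only the 12 arrays at 24 h (limma adjusted p = 0.126) and a fit without both A549 arrays of replicate 3 at 24 h (limma adjusted p = 0.0841). In that A549 pair the change ran opposite to both other pairs for FGFR1, PDGFB, PDGFA, FGF2, FGFR2, FGFR3 (A_23_P500501) and FGFR4, in part by little. The A549 changes at 24 h thus average pairs that oppose each other for much of the set. At 6 h, 0 of 15 probes differed in their change between the lines, beside 0.0336%, and 0 had an unadjusted limma p under 0.05, against 2.63%. Across the 8 groups the mean of A_24_P12401 was highest in H1975 with Pirfenidone at 24 h (-0.39 ± 0.23, SD, n = 3), followed by H1975 with Pirfenidone at 6 h (-0.82 ± 0.26) and with PBS at 6 h (-1.21 ± 0.29) and 24 h (-1.44 ± 0.02). The A549 groups followed from -2.28 ± 0.11 with Pirfenidone at 6 h down to -2.70 ± 0.08 with PBS at 6 h. The arrays of the H1975 groups at 6 h overlapped with each other, as did those of H1975 with PBS at 6 h and 24 h. The 3 lowest groups, all A549, also overlapped.

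**Figure D4:**
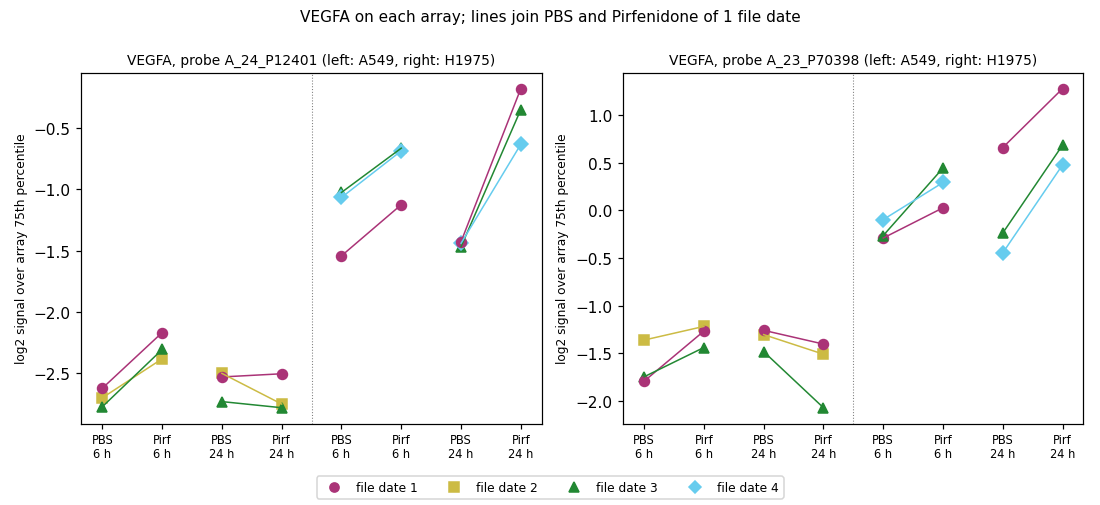
Normalized log2 signal of both VEGFA probes on each of the 24 arrays by group, with A549 left of the dotted line, file dates as symbols and lines joining the PBS and the Pirfenidone array of 1 date. In H1975 every line rises at 6 h and 24 h, and in A549 every line rises at 6 h and 5 of 6 lines fall at 24 h.

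The other ligands gave no call with Pirfenidone. PDGFB in H1975 at 6 h read -2.65, -3.69 and -3.75 with PBS and -4.84, -4.75 and -3.95 with Pirfenidone. All Pirfenidone arrays were below all PBS arrays. In that comparison 3 of the 15 probes had groups that did not overlap, PDGFB below and VEGFA (A_23_P70398) and FGFR3 (A_23_P500501) above, beside 17.8% of all probes. The change of -1.15 (interval -2.03 to -0.28, 2.22-fold, limma adjusted p = 0.248) was not called. Within a date it was -1.30, -1.15 and -1.01 on dates 1, 3 and 4. With normexp the change was -0.09 (limma adjusted p = 0.907), where the median change of all probes was 0.29, whereas with slide as a random block it was called (-1.15, limma adjusted p = 0.0197). At 24 h the change of PDGFB in H1975 was -0.10 (-0.97 to 0.78).

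PDGFC in H1975 at 24 h read 0.75, 0.83 and 0.64 with PBS and 1.32, 1.24 and 1.45 with Pirfenidone. The groups did not overlap, which held for 3 of the 15 probes and 31.9% of all probes in that comparison. The change was 0.60 (interval 0.06 to 1.13, 1.51-fold, limma adjusted p = 0.173), and with date as a block its limma adjusted p was 0.0228, below the 2-fold limit in either case. PDGFA (A_33_P3372666) in H1975 at 24 h was higher within every date, by 0.77, 0.63 and 0.65, but the dates lay further apart than the treatments and the change of 0.68 had an interval of -0.19 to 1.55 (limma adjusted p = 0.363). FGF2 in A549 at 24 h read -0.03, -0.07 and -0.39 with PBS and -0.11, -0.98 and -0.34 with Pirfenidone, so that 1 Pirfenidone array, replicate 2, was low. Its change was -0.31 (-0.71 to 0.08). The change of VEGFC in A549 was -0.24 (-0.68 to 0.20) at 6 h and -0.13 (-0.57 to 0.31) at 24 h. FGF2 and VEGFC stayed at background in H1975 with Pirfenidone, on 0 of 6 arrays each.

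The FGF receptors gave no call with Pirfenidone either. FGFR1 (A_23_P301304) in A549 at 24 h read 1.54, 1.42 and 0.62 with PBS and 0.86, 0.44 and 1.55 with Pirfenidone. The third pair of arrays ran opposite to the others: within a date the change was 0.93 on date 1 and -0.68 and -0.97 on dates 2 and 3. The change over all arrays was -0.24 (-0.73 to 0.25), and without both arrays of replicate 3 it was -0.83 (limma adjusted p = 0.0904). In H1975 at 24 h the changes of the FGFR1 probes were 0.22 (-0.27 to 0.71) and 0.41 (-0.14 to 0.96). For FGFR3 (A_23_P500501) in H1975 at 6 h the change was 0.37 (-0.04 to 0.79) without overlap. The changes of FGFR4 lay between -0.13 and 0.19 in the 4 comparisons. Those of FGFR2 lay between -0.28 and 0.29, and in H1975 at 24 h its interval ran from -0.99 to 1.57, since the dates enter its error. In A549 at 24 h these averages join opposite pairs. On dates 1, 2 and 3 the change was -0.33, 0.36 and 0.15 for FGFR4 and 0.46, -0.18 and -0.24 for FGFR2.

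**Figure D5:**
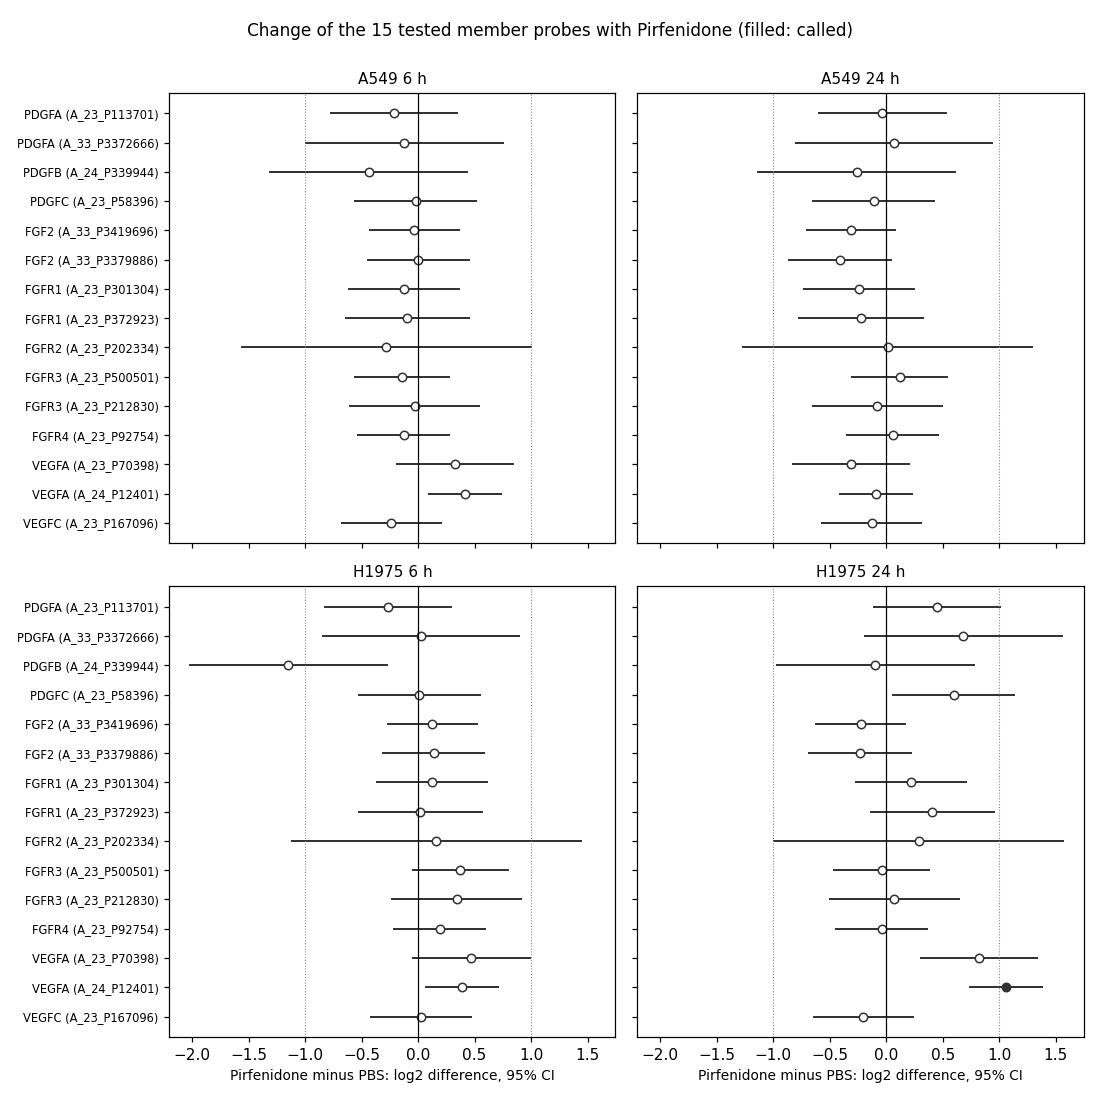
Log2 change with Pirfenidone against PBS for the 15 tested probes in each line at each time, with 95% confidence intervals from limma. The filled symbol, VEGFA (A_24_P12401) in H1975 at 24 h, was the only call, and dotted lines mark a 2-fold change.

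Time in culture alone gave no call. With PBS, 0 of 15 probes differed between 24 h and 6 h in A549, beside 0.109% of all probes, and 0 in H1975, beside 0.315%. Without adjustment 2 and 0 probes had a limma p under 0.05, against 8.49% and 10.6% of all probes. FGFR3 (A_23_P500501) in A549 read 0.42, 0.04 and 0.19 at 6 h and 0.61, 0.77 and 1.41 at 24 h. Its groups did not overlap, as for 4 of the 15 probes, 2 higher and 2 lower at 24 h, and 15% of all probes. The difference of 0.72 (interval 0.30 to 1.14, limma adjusted p = 0.216), and of 0.78 (limma adjusted p = 0.421) for its other probe, was not called. FGF2 (A_33_P3419696) in A549 was lower at 24 h without overlap, with a mean of -0.16 against 0.09 at 6 h. In H1975 the 24 h minus 6 h difference of FGFR3 was 0.39 (-0.03 to 0.81), without overlap. That held for 2 of the 15 probes, 1 higher and 1 lower, and 18.9% of all probes. The change with Pirfenidone differed between 6 h and 24 h for 0 of 15 probes in A549, beside 0.0294%, and for 0 in H1975, beside 0.0042%. In each line 1 probe, VEGFA (A_24_P12401), had an unadjusted limma p under 0.05, against 3.04% and 5.86% of all probes.

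The other genes of these pathways were taken from lists of further ligands, receptors and co-receptors, adaptors and kinases, and feedback genes, with 1 probe for each gene. Of 12 further ligands tested, 1 was called with Pirfenidone, FGF19 in H1975 at 24 h, where 1.89% of all probes were called and 0.89% were called higher. FGF19, a hormone-like FGF that acts through FGFR4, read -9.02, -9.13 and -8.12 with PBS, none well above background, and -6.78, -6.72 and -6.22 with Pirfenidone, all well above it. It was at least 1.62-fold higher. Since FGF19 was well above background on no other array of either line, it entered the tests only through the group where it was high and had to differ, so its call (limma adjusted p = 1.61e-05) is a description. FGFR4 itself read -4.09, -4.11 and -3.58 with PBS and -3.97, -4.00 and -3.95 with Pirfenidone in these samples. Of 19 feedback and target genes, 1 was called, DUSP6 in the same comparison. DUSP6, an ERK phosphatase that is induced by ERK signaling, read -0.17, -0.02 and -0.81 with PBS and 1.26, 1.35 and 1.02 with Pirfenidone, so it rose by 1.54 on the log2 scale with a standard error of 0.30, at a limma adjusted p of 0.00752. In the other Pirfenidone comparisons 0 ligands and 0 feedback genes were called, and 0 of 13 receptors and co-receptors and 0 of 24 adaptors and kinases were called in any of the 4.

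VEGFA is a known target of both the hypoxia and the ATF4 stress responses, so lists for these were set beside it. Whether either response changed VEGFA was not tested, and the lists share the gene VLDLR. All probes tested were called at 0.176% and 0.0126% in A549 at 6 h and 24 h and at 0.491% and 1.89% in H1975, with median changes of -0.01, -0.02, 0.05 and 0.02. Of 14 hypoxia targets, 0 were called in A549, 1 at 6 h in H1975 (ANKRD37, 1.25, limma adjusted p = 0.000178) and 1 at 24 h in H1975 (NDRG1, 1.44, limma adjusted p = 0.00574). Their median change was 0.04, 0.09, 0.33 and 0.61 in A549 at 6 h and 24 h and H1975 at 6 h and 24 h. Of 12 ATF4 targets, 3 were higher in A549 at 6 h, 0 at 24 h, and in H1975 7 were higher at 6 h and 9 at 24 h, with none lower. Their medians were 0.90, -0.07, 1.03 and 1.51, and the log2 change of VEGFA (A_24_P12401) was 0.41, -0.09, 0.39 and 1.06 in the same order. The lists used the brightest probe of each gene, whereas A_24_P12401 is the dimmer VEGFA probe. The brighter one, A_23_P70398, whose changes are given above, was not called in these comparisons. The largest called changes over all lists were CHAC1, DDIT3 and TRIB3 in A549 at 6 h (2.29, 2.19 and 1.24), CHAC1, DDIT4 and DDIT3 in H1975 at 6 h (3.20, 2.30 and 2.08), and CHAC1, FGF19 and PHGDH in H1975 at 24 h (2.77, 2.18 and 1.94), each with a limma adjusted p of at most 0.0258. The 2.18 of FGF19 starts from PBS arrays at background. Only at least 1.62-fold holds for it, so its place in this ranking and its call are a description.

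Between the lines with PBS, 4 further ligands were higher and 2 lower in H1975 at 6 h, and 5 were higher and 2 lower at 24 h, of 12, where 32.4% and 32.9% of all probes were called in either direction. Of 13 receptors and co-receptors, 3 were higher and 6 lower at 6 h and 3 higher and 5 lower at 24 h, beside the same shares. Genes detected in 1 line alone had to differ, so these counts are a description. Of the receptors that bind the ligands described here, named after their values were seen, PDGFRB was well above background on 12 H1975 and 0 A549 arrays and PDGFRA on 3 A549 and 0 H1975 arrays. The VEGF receptors FLT1 and KDR were so on 0 arrays of either line, and FLT4, the receptor of VEGFC, on 12 A549 and 9 H1975 arrays by its brighter probe and on 0 by its other probe. The co-receptors NRP1 and NRP2 were well above background on all 24. PDGFRB was at least 4.21-fold higher in H1975 than in A549 at 6 h and at least 7.72-fold higher at 24 h. PDGFRA and PDGFRB are also fibroblast markers, and KDR an endothelial one. Of the 7 fibroblast markers 2, THY1 and LUM, passed the background test on every A549 array and were called higher there. Another 2, COL1A2 and PDGFRB, passed on every H1975 array and were called higher there, and COL3A1 and DCN passed on none. The summed signal of the 7 with PBS at 6 h, in units of the 75th percentile, was 0.291 to 0.485 in A549 and 1.15 to 3.64 in H1975. The brightest marker was THY1 in A549 (mean -1.51) and COL1A2 in H1975 (mean 1.52). The sum thus follows single genes, and the markers went in both directions. Of the 5 endothelial markers 1 passed on every A549 array and 3 on every H1975 array, with TEK and KDR on none. Of the 4 leukocyte markers on the array 3 passed on every A549 array and 2 on every H1975 array. Among the 3 of them tested, 1, CD68, was called higher in H1975 at both times. The part of other cell types in the line differences was not tested.

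For each receptor or ligand detected on all 24 arrays, the genes of most similar pattern over the 12 arrays of each line were found by Pearson's r among 18836 probes, and the lower r of the lines ranked them. The points are arrays that share dates and treatments, so these values are a description. VEGFA (A_23_P70398) was most like IARS, a tRNA synthetase gene (r = 0.91 in A549 and 0.85 in H1975), and LSMEM1 (0.87 and 0.83), and with the mean of each date taken out r was 0.91 and 0.89 for IARS. FGFR2 was most like CRB3, a polarity gene (0.97 and 0.99), and EPCAM (0.91 and 0.94). With date means taken out, r with CRB3 was 0.87 and 0.94, but with EPCAM it was 0.17 and -0.09, so that the likeness to EPCAM lay in the dates. PDGFC was most like NAMPT (0.87 and 0.85) and GPC6 (0.85 and 0.84), and in A549 these turned to -0.45 and -0.31 with date means taken out.

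PDGFA was most like PDXK (0.87 and 0.86) and NEK6 (0.84 and 0.94), and PDGFB like LOXL1, a crosslinking enzyme of elastin (0.85 and 0.84), and C6orf99 (0.94 and 0.81). Of the receptors, FGFR1 was most like ZMYND11 (0.81 and 0.84) and ZFP69B (0.79 and 0.80), and FGFR3 like UNC5CL (0.82 and 0.87) and LOC100130417 (0.86 and 0.82). FGFR4 was most like TCF25 (0.87 and 0.91) and EPS8L3 (0.86 and 0.86). For these 5 members r stayed at 0.62 or above with date means taken out.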

How the data were processed

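Spot intensity on 24 single-color arrays was deposited by the authors as read with Agilent Feature Extraction version 11.5.1.1, per the file headers, which subtracts the background. A table of log2 values deposited by the authors, centered on the median of each probe, was used as an alternative. Its differences between arrays correlated with those of the scanner values at r = 0.9994. Here the log2 of the processed signal minus its 75th percentile on the array was taken over 43118 spots, leaving out outlier spots and averaging the spots of a probe. Probes were tested where some group had its 3 arrays all well above background, in 1 limma fit (version 3.58.1, R version 4.3.3) of 8 groups with 16 residual degrees of freedom, and 12 comparisons were made. The study's moderated t-test used a permutation family-wise error, in whose place Benjamini-Hochberg adjustment was used here, with Holm as the family-wise alternative. The fit was checked on simulated data.

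The genes and lists were chosen with earlier results of these data known. Every probe of a member is named. Of the other lists, the 3 largest called changes in each Pirfenidone comparison are named, and the 2 genes most like each member. The representative probe of a gene was its brightest. Gene names and hg19 positions are those of the array files. Exon and UTR positions are left out, as they need an hg19 annotation. Promoter windows came from RefSeq (GRCh38.p14). Alternatives were normexp with an offset of 50, quantile normalization, the deposited log2 values, no filter and a stricter filter, replicate number, date or slide as a block, only the arrays compared, Holm adjustment, no fold limit, the mean of a gene's probes, a plain t-test paired by date (not the study's test), each array left out, and both A549 arrays of replicate 3 at 24 h left out. Replicate numbers did not pair the samples throughout, since in H1975 at 6 h they joined arrays of different dates. The number of arrays limits the precision, and for dim probes the signal over background does too.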

Additional observations from a re-analysis of the deposited data

Results flagged for a closer look

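The difference between the lines in the Pirfenidone change of VEGFA (A_24_P12401) at 24 h stood out because the effect of the same treatment differed between the lines by a test of the difference itself. The change in H1975 exceeded that in A549 by 1.15 on the log2 scale (limma adjusted p = 0.0281), and this call was lost in 12 of 24 alternatives, 8 of them with a single array left out. With Pirfenidone the probe was higher than with PBS on all 3 dates in H1975. In A549 the changes were 0.03, -0.25 and -0.05 on dates 1, 2 and 3. The second VEGFA probe had a difference of similar size, 1.13, that was not called (limma adjusted p = 0.18).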

How the results depend on the processing

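No value changed direction past its threshold: of 3639 values of single probes under the alternatives, 19 lost a call, 4 gained one and 0 reversed. In H1975 at 6 h with Pirfenidone the count of 0 called probes became 1, PDGFB, with slide as a random block and in a plain t-test paired by date without adjustment. In H1975 at 24 h the count of 1 became 0 with normexp, and 0 to 2 with each array left out: 2 without the PBS array of replicate 3 and 0 without the Pirfenidone array of replicate 3. The paired t-test after Benjamini-Hochberg adjustment also gave 0, but it called 0 of all 23827 probes in each Pirfenidone comparison, so it bears on no single probe. The line difference in the change at 24 h, called for 1 probe, VEGFA, gave 0 with normexp (limma adjusted p = 0.274), with only the arrays compared, with Holm adjustment and without both A549 arrays of replicate 3 at 24 h, and 0 to 1 with each array left out, where the limma adjusted p ran from 0.0221 to 0.0865. It was lost without replicate 1 or 3 of A549 with PBS, replicate 1 of A549 with Pirfenidone, any replicate of H1975 with PBS, or replicate 1 or 3 of H1975 with Pirfenidone. The 11 line differences with PBS became 7 of 11 probes tested at each time when probes had to pass the background test on each of the 24 arrays, because FGF2, VEGFC and the dim FGFR3 probe then leave the test. With the replicate number as a block, as a pairing, the counts were 1 in H1975 at 24 h and for the line difference in the change, 11 for both line differences with PBS, and 0 elsewhere, so it changed no call. Holm adjustment also ended the line calls of VEGFA (A_23_P70398), with limma adjusted p-values of 0.303 at 6 h and 0.568 at 24 h. Normexp also moved the median change of all probes in H1975 at 6 h to 0.29, so changes there are read against it. The causes were not tested. Signal over background limits FGF2 and VEGFC in H1975 and the second FGFR3 probe there.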
